A study of Mus musculus with 33 samples.

Results

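The genes of the MHC class I antigen presentation pathway were followed through embryoid body (EB) differentiation of mouse embryonic stem cells. The 9 genes were H2-K1, H2-D1, B2m, Tap1, Tap2, Tapbp, Psmb8, Psmb9 and Nlrc5, and all 9 were among the 16336 genes of the deposited table. They were chosen by name and not by their values, though earlier results of these data were known. RNA of 33 libraries was sequenced from 3 lines. E14Tg2a is the wild-type line, of strain 129/Ola, and dK9.1 and dK9.2 are 2 clones of it, each homozygous for a Crispr/Cas9 deletion of a region between the enhancer and promoter of Nanog that carries H3K9me3. Undifferentiated cells (day 0) grew on gelatine in serum with LIF, and EBs without LIF were taken on days 4, 6 and 8, with 3 libraries per line and day except 2 on day 6. EBs were plated onto gelatine after day 4, so plating and day change together. The labels give no interferon treatment for any group, and all 3 lines share the E14Tg2a background. Replicates of a line are separate differentiation assays of 1 line or 1 clone, so p-values cover the spread between assays and not between independent clones.

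MHC class I molecules show peptides from inside the cell to cytotoxic T cells. The proteasome cuts the peptides, and its immunoproteasome form carries the inducible catalytic subunits Psmb8, Psmb9 and Psmb10 in place of Psmb5, Psmb6 and Psmb7. The Tap1-Tap2 transporter moves peptides into the endoplasmic reticulum, where tapasin (Tapbp) bridges it to the class I heavy chain, encoded by H2-K1 or H2-D1, which pairs with β2-microglobulin (B2m). Nlrc5 is the transactivator of these genes, and interferons raise most of them. Pluripotent cells are known for little class I at their surface.

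Of the 9 genes, 7 lie on chromosome 17 in the MHC region (mm10 coordinates, GENCODE M21). They are Tapbp (chr17:33915899-33929292), H2-K1 (chr17:33996017-34000347), Psmb9 (chr17:34181987-34187764), Tap1 (chr17:34187553-34197225), Psmb8 (chr17:34197721-34201454), Tap2 (chr17:34203527-34216321) and H2-D1 (chr17:35262730-35267499). B2m is at chr2:122147686-122153083 and Nlrc5 at chr8:94434356-94527272. Psmb9 and Tap1 are divergent genes whose annotated ends overlap on opposite strands, and the authors' quantification used strand. H2-D1 is the member most like other genes, since 4.64% of the 100-base windows of its longest coding transcript also occur in transcripts of other genes, mostly H2-Q1 (4.24%). None of the H2-K1 windows did, so the level of H2-D1 is the less certain of the pair.

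RefSeq promoter sequence (GRCm38.p6) was at hand for 7 of the 9 genes, all but Tap2 and Nlrc5. The heavy chain and B2m promoters are shown because class I genes are known to share regulatory boxes there. Capitals mark letters searched on both strands, namely GGGATTCCC (NF-kB), GAAANNGAA and GAANNGAAA (2 spacings of the interferon response element), TGACG (the core of a CRE, as in the X box) and CCAAT (the Y box).
H2-K1, chr17:34000348-34000547, minus strand, up to the base before its start: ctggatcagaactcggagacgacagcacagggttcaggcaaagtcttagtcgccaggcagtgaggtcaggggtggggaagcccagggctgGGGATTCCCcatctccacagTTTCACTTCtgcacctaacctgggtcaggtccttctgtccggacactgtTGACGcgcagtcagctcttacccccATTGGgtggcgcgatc
B2m, chr2:122147487-122147685, plus strand: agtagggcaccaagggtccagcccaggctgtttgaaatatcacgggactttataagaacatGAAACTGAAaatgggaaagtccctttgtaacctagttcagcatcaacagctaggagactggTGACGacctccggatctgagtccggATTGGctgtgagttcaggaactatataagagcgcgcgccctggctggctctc
Shared element of H2-K1, chr17:34000429-34000457, minus strand: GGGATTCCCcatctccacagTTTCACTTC
Shared element of H2-D1, chr17:35262924-35262952, plus strand: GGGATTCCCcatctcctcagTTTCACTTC

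The 29-base elements of H2-K1 and H2-D1 are identical at 28 bases and differ by A17T, counted from the first capital with the H2-K1 base first. GGGATTCCC stands in 0.35% of 32851 promoter windows of 300 bases, against GAANNGAAA in 7.52% and GAAANNGAA in 8.56%. TGACG (20.81%) and CCAAT (37.41%) are common. A match of letters is a description and does not show binding.

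Levels are given as the authors' TPM, which bring each library to the same total and allow for transcript length, and differences as log2 fold changes of TPM + 1 with standard errors. Tests are limma's with adjustment over all genes, and a gene is said to rise or fall at an adjusted p under 0.05. On this scale the change of genes near 0 TPM is understated. As a check of the lines, Nanog was at 344 TPM in E14Tg2a on day 0, 468 in dK9.1 and 426 in dK9.2, and the clones were higher by 0.38 ± 0.06 on day 0 (adjusted p = 0.00943) and by 1.79 ± 0.23 on day 8 (adjusted p = 1.28e-05). TPM do not keep read depth, and the sums per library over the listed genes ran from 994284 to 998266. In these bulk samples fewer cells of a type and less RNA per cell cannot be told apart.

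In wild-type cells most of the pathway rose during differentiation. On day 8, 6 of the 9 genes were higher than on day 0 and none was lower, with B2m, H2-K1, Tapbp, Tap2, Psmb8 and Tap1 rising, while 32.1% of all genes rose and 26.2% fell. The members' median change was 1.51, beside 0.05 for all genes. On day 4, 4 members had risen (Psmb8, B2m, Tapbp and Tap2), with 10.4% of all genes. On day 6 there were 6 (those 4, H2-K1 and H2-D1), with 19.6% of all genes.

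**Figure D1:**
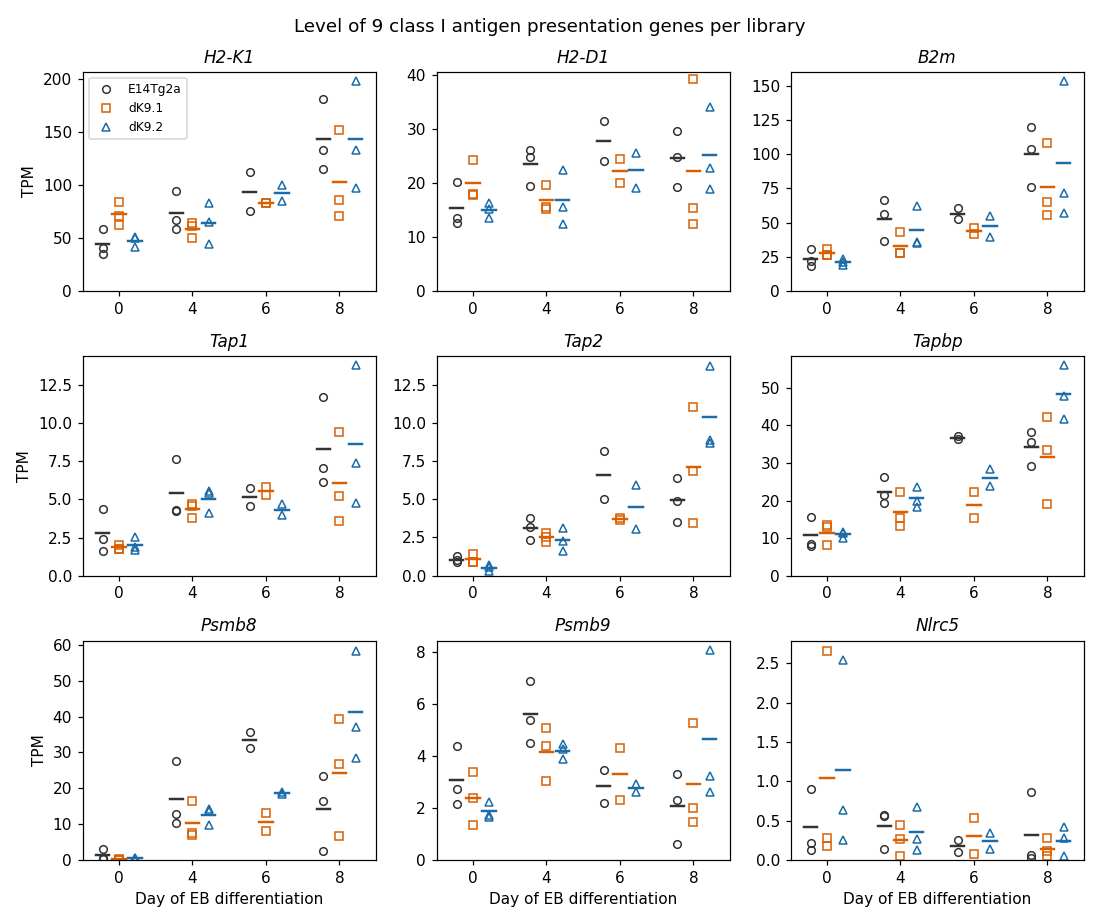
TPM of each gene (vertical axis, from 0) by day of EB differentiation, with 1 symbol per library and a short line at the mean of each line. Psmb8 was under 3 TPM in all 9 day 0 libraries and reached 58.4 TPM on day 8, and Nlrc5 stayed under 3 TPM throughout.

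B2m, the light chain of every class I molecule, was at 30.6, 18.2 and 22.3 TPM in the 3 E14Tg2a libraries of day 0, at 66.2, 36.5 and 56.4 on day 4, at 52.9 and 60.4 on day 6, and at 75.6, 104 and 120 on day 8. Each later day lay wholly above day 0, and the increase was 1.12 ± 0.30 on day 4 (adjusted p = 0.00757, limma), 1.25 ± 0.34 on day 6 and 2.03 ± 0.30 on day 8 (adjusted p = 2.87e-06).

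Of the heavy chains, H2-K1 was at 58.3, 34.9 and 40.4 TPM in E14Tg2a on day 0, at 94.3, 58.6 and 67.2 on day 4, at 75.4 and 112 on day 6, and at 133, 116 and 181 on day 8. All day 8 libraries were above all day 0 libraries, and H2-K1 rose by 1.67 ± 0.27 (adjusted p = 9.89e-06, limma). On day 4 the difference was 0.71 ± 0.27 with an adjusted p of 0.0543, and of 0.0218 with the assay (replicate number) as a block. H2-D1 ran from 20.2, 12.6 and 13.6 TPM on day 0 to 24.9, 19.4 and 29.8 on day 8, ranges that overlap. Its difference was 0.65 ± 0.29 on day 8 (adjusted p = 0.0566, and 0.0171 with the replicate block). On day 6 alone it passed, at 0.83 ± 0.32 (adjusted p = 0.0442), a call that was lost with median-ratio scaling (0.0622) and when any of 4 of its 5 libraries was left out (0.0728 to 0.264).

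The peptide transporter and its partner rose as well. Tap2 was at 0.997, 1.26 and 0.861 TPM on day 0 and at 4.89, 3.51 and 6.36 on day 8, a rise of 1.51 ± 0.28 (adjusted p = 4.85e-05, limma). Tap1, the other subunit of the transporter, went from 4.39, 2.39 and 1.602 TPM to 6.17, 7.07 and 11.8, without overlap, and rose by 1.32 ± 0.31 (adjusted p = 0.000662). Tapbp, which holds class I at the transporter, was at 15.7, 8.54 and 7.78 TPM on day 0 and at 38.2, 29.1 and 35.7 on day 8. Its rise was 1.65 ± 0.25 (adjusted p = 4.01e-06), and it had reached 36.3 and 37.1 TPM by day 6.

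The inducible proteasome subunits did not move alike. Psmb8, the inducible counterpart of Psmb5, was near absent from undifferentiated E14Tg2a cells, with 2.97, 0.309 and 0.436 TPM. It stood at 27.7, 10.3 and 12.9 TPM on day 4, at 31.3 and 35.7 on day 6, and at 23.5, 2.35 and 16.5 on day 8. The increases were 3.08 ± 0.58, 4.14 ± 0.64 and 2.53 ± 0.58 (adjusted p = 0.000298, 1.47e-05 and 0.000539, limma). Days 4 and 6 lay wholly above day 0, whereas on day 8 replicate 2 fell inside the day 0 range. Without that library the day 8 increase was 3.40. Psmb9, counterpart of Psmb6, was at 4.39, 2.15 and 2.71 TPM on day 0 and at 3.29, 0.624 and 2.29 on day 8, a difference of -0.49 ± 0.36 (adjusted p = 0.252). Its highest values in E14Tg2a, 6.89, 5.39 and 4.52 TPM, were on day 4, with a difference of 0.71 ± 0.36 (adjusted p = 0.148).

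Nlrc5, the transactivator, was at most 0.898 TPM in any E14Tg2a library and 2.66 TPM in any library. Its difference on day 8 was -0.12 ± 0.35 (adjusted p = 0.799, limma). In dK9.1 and dK9.2 it was -0.63 ± 0.35 and -0.65 ± 0.35 (adjusted p = 0.145 and 0.132).

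By level, the day 8 order in E14Tg2a was H2-K1, B2m, Tapbp, H2-D1, Psmb8, Tap1, Tap2, Psmb9 and Nlrc5. B2m (75.6 to 120 TPM) lay wholly above Tapbp (29.1 to 38.2 TPM), and Tap2 (3.51 to 6.36 TPM) above Psmb9 (0.624 to 3.29 TPM), while the library values of the other neighbours overlapped.

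Psmb8, Tap2, B2m, Tapbp and Tap1 rose by day 8 in both clones as well as in E14Tg2a. In dK9.1, these 5 members were higher on day 8 than on day 0, with 25.1% of all genes. In dK9.2, 7 were (the same 5 with H2-K1 and Psmb9), with 24.6% of all genes. On day 4, 3 members had risen in dK9.1 (4.28% of all genes) and 5 in dK9.2 (8.09%), and on day 6 there were 3 (11.2%) and 5 (16.0%). Without 1 library the day 4 counts were 1 to 2 in dK9.1, whichever of its libraries was left out, and 2 to 5 in dK9.2, lowest without replicate 3 of day 4. The day 6 counts were 2 to 3 in dK9.1, lowest without replicate 2 of day 6, and 3 to 5 in dK9.2, lowest without replicate 3 of day 6. No member fell in any line on any day. All 3 lines are compared with their own day 0. They share 1 estimate of the spread and were differentiated in parallel, so the counts are not independent between lines.

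**Figure D2:**
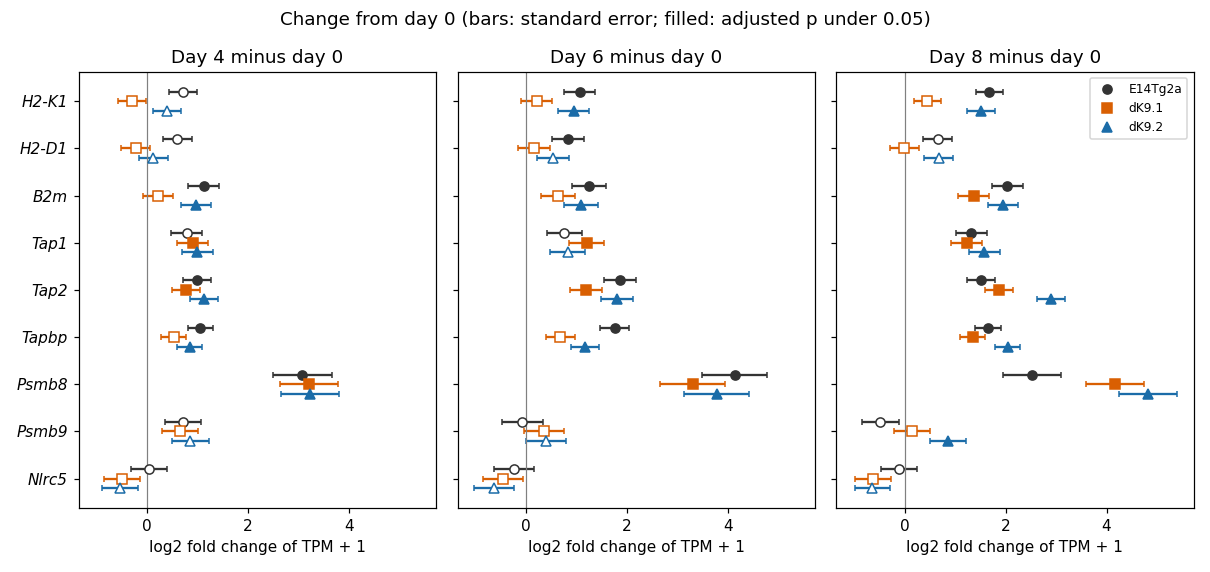
Log2 fold change of TPM + 1 from day 0 (horizontal axis) for each gene on days 4, 6 and 8, with the standard error as bars and filled symbols for an adjusted p under 0.05. Psmb8 is the farthest to the right in each line, at 2.53, 4.16 and 4.83 on day 8 in E14Tg2a, dK9.1 and dK9.2, and no symbol left of 0 is filled.

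Psmb8 showed the largest day 8 change in each clone. In dK9.1 it went from 0.110, 0.275 and 0.0552 TPM to 26.9, 6.61 and 39.4, a rise of 4.16 ± 0.58 (adjusted p = 1.66e-06, limma), or 4.88 without replicate 2 of day 8. In dK9.2 it went from 0.405, 0.264 and 0.643 TPM to 37.1, 28.5 and 58.4, a rise of 4.83 ± 0.58 (adjusted p = 1.50e-07). In both clones the days were fully apart. Tap2 in dK9.2 rose by 2.89 ± 0.28 (adjusted p = 4.71e-09), from 0.273, 0.571 and 0.720 TPM to 8.84, 8.67 and 13.7. In dK9.1 it rose by 1.86 ± 0.28, from 1.41, 0.912 and 0.916 TPM to 6.85, 3.46 and 11.1.

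H2-K1, the more abundant heavy chain, passed the test in dK9.2 alone of the clones. In dK9.1 it began at 62.0, 70.4 and 84.3 TPM and ended at 86.3, 70.9 and 152, overlapping, with a difference of 0.44 ± 0.27 (adjusted p = 0.184, limma). In dK9.2 it began at 41.8, 50.9 and 50.2 TPM and ended at 97.6, 133 and 198, a rise of 1.51 ± 0.27 (adjusted p = 4.89e-05). The difference between the clones in this change was not tested. H2-D1 in dK9.1 differed by -0.01 ± 0.29 on day 8, and in dK9.2 by 0.67 ± 0.29 (adjusted p = 0.0566, and 0.0166 with the replicate block). Psmb9 in dK9.2 rose by 0.85 ± 0.36 with an adjusted p of 0.0499, from 2.23, 1.75 and 1.67 TPM to 2.63, 3.22 and 8.08, and without replicate 3 of day 8 the value was 0.45 (adjusted p = 0.337). Several other single calls rested on 1 library. The call of H2-K1 on day 6 in E14Tg2a, 1.06 ± 0.30, was lost without replicate 3 of that day (adjusted p = 0.131).

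The average of the 2 clones was then set beside E14Tg2a. With 2 clones of 1 line, the deletion and other differences of the clones cannot be told apart. By limma none of the 9 genes differed on day 0, where 5.72% of all genes did, on day 4 (2.85% of all genes), day 6 (3.83%) or day 8 (19.7%). The change from day 0 also differed for none of them, on day 4 (0.0184% of all genes), day 6 (0.306%) or day 8 (6.30%). At an unadjusted p under 0.05 there were 1, 0, 1 and 2 members on days 0, 4, 6 and 8, beside 3374 of 14504 genes on day 0 and 2524, 2781 and 5227 of 16336 on the later days. For the change there were 0, 1 and 4 members on days 4, 6 and 8, beside 1421, 1679 and 3624 of 16336 genes. The members' median difference was -0.09 on day 8, beside 0.00 for all genes.

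Psmb8 and Tap2 were nearest to a difference. On day 8 Psmb8 was 1.35 ± 0.50 higher in the clones (adjusted p = 0.0563, limma), and the values given above overlapped through replicate 2 of dK9.1 at 6.61 TPM. Tap2 was 0.66 ± 0.24 higher (adjusted p = 0.0550). With the assays as a replicate block the adjusted p was 0.0268 for Psmb8 and 0.0196 for Tap2, and the greater change of Psmb8 from day 0, 1.97 ± 0.71 (adjusted p = 0.0936), had an adjusted p of 0.0460. Without replicate 2 of E14Tg2a on day 8 the differences were 0.48 for Psmb8 (adjusted p = 0.621) and 0.48 for Tap2 (adjusted p = 0.333). On day 6 the direction was the other one for Psmb8, at 31.3 and 35.7 TPM in E14Tg2a, 13.0 and 8.12 in dK9.1 and 18.3 and 19.0 in dK9.2, with no overlap but a difference of -1.21 ± 0.61 that did not pass (adjusted p = 0.319). Tapbp did not overlap on that day either, with a difference of -0.72 ± 0.27 (adjusted p = 0.140).

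Each clone was also set against E14Tg2a on its own. On day 8 Psmb8 and Tap2 were higher in dK9.2, by 1.85 ± 0.58 (adjusted p = 0.0279, limma) and 0.95 ± 0.28 (adjusted p = 0.0203), where 16.6% of all genes differed. Neither call held without replicate 2 of E14Tg2a (0.97 and 0.77, adjusted p = 0.311 and 0.147). In dK9.1 on day 8 no member differed, with 11.3% of all genes. On day 0 H2-K1 was 0.71 ± 0.18 higher in dK9.1 (adjusted p = 0.0301), where 15.5% of all genes differed, and all 3 dK9.1 values were above all 3 of E14Tg2a. This call was lost with median-ratio scaling (0.0512), with all 33 libraries in the fit (0.0954) and when any of 4 of the 6 libraries was left out (0.0858 to 0.0960). No member differed in dK9.2 on day 0, with 0.0827% of all genes.

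Other genes of the pathway on the same steps were counted from lists. Of 6 inducible proteasome and activator genes, 5 were listed, and in E14Tg2a by day 8, 2 of them rose and 2 fell, near the 32.1% and 26.2% of all genes. The risers were Psme1, from a mean of 63.3 to 135 TPM (1.08 ± 0.15, adjusted p = 1.32e-06, limma), and Psme2, from 60.95 to 158 TPM (1.37 ± 0.24, adjusted p = 2.74e-05), the subunits of the PA28 activator of the proteasome. Psmb10, the third inducible subunit, stood far above Psmb8 and Psmb9 in undifferentiated cells, at 75.7, 69.8 and 96.3 TPM in E14Tg2a, and fell to 62.3, 28.6 and 34.9 on day 8 (-0.99 ± 0.25, adjusted p = 0.00140, limma). On day 8 it was at 77.5, 40.3 and 78.1 TPM in dK9.1 and at 93.1, 73.3 and 109 in dK9.2. From its own day 0 it rose in dK9.2 by 0.68 ± 0.25 (adjusted p = 0.0251), a call lost when any of 4 of the 6 libraries was left out (0.0572 to 0.112), and in dK9.1 the difference was 0.29 ± 0.25 (adjusted p = 0.346). The clones were 0.91 ± 0.22 higher (adjusted p = 0.00424), and their change from day 0 differed by 1.48 ± 0.31 (adjusted p = 0.00718).

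Of 10 loading and endoplasmic reticulum genes, 6 rose and none fell in E14Tg2a by day 8, beside 32.1% and 26.2% of all genes. Between the clones and E14Tg2a on day 8, 2 of the 10 were higher and 3 lower, where 19.7% of all genes differed. Calr (calreticulin), the chaperone that holds the class I heavy chain during loading, was the farthest below, with a difference of -0.70 ± 0.17 (adjusted p = 0.00471, limma). Its levels on day 8 were 388 to 718 TPM in E14Tg2a, 227.5 to 443 in dK9.1 and 260 to 315 in dK9.2. Erap1, which trims peptides for class I, was at 8.09, 2.12 and 3.78 TPM in E14Tg2a on day 8, at 6.39, 7.36 and 13.6 in dK9.1 and at 11.5, 9.06 and 9.43 in dK9.2. Its level was 1.002 ± 0.277 higher in the clones on day 8 on the log2 scale (adjusted p = 0.0118, limma), and its change from day 0 differed by 1.62 ± 0.39 (adjusted p = 0.0152). Of 12 tested transcription factors of class I genes, 5 rose and 2 fell in E14Tg2a, near those shares of all genes, led by Irf2, a factor of the interferon regulatory family, at 2.95 ± 0.23. Irf1, the interferon regulatory factor that acts on Psmb9, Tap1 and the heavy chains, was at 30.2, 10.4 and 14.3 TPM in E14Tg2a on day 8, at 41.5, 23.6 and 55.0 in dK9.1 and at 67.0, 47.1 and 53.6 in dK9.2. It was 1.41 ± 0.28 higher in the clones (adjusted p = 0.000914), and its change from day 0 differed by 1.51 ± 0.39 (adjusted p = 0.0229).

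Psmb10, Erap1, Irf1 and Calr moved with the same library as Psmb8. Replicate 2 had the lowest E14Tg2a value on day 8 for Psmb8, Psmb9, Psmb10, Erap1 and Irf1, and the highest for Calr. Without it the day 8 difference of Irf1 was 1.10 (adjusted p = 0.0269, limma), that of Psmb10 0.68 (adjusted p = 0.0820), that of Erap1 0.64 (adjusted p = 0.196) and that of Calr -0.42 (adjusted p = 0.123). In the change from day 0, of Psmb10, Irf1 and Erap1, Psmb10 alone kept its call (1.25, adjusted p = 0.0437, against 0.131 for Irf1 and 0.0944 for Erap1).

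**Figure D3:**
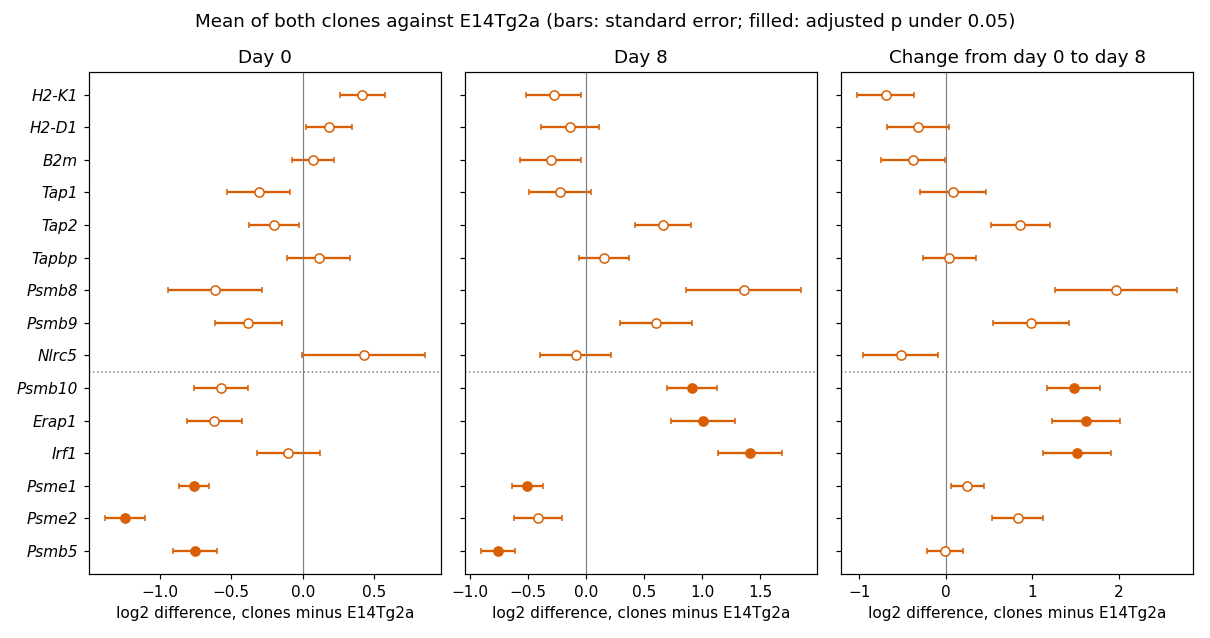
Log2 difference, clones averaged minus E14Tg2a (horizontal axis), on day 0, on day 8 and in the change between them, with the standard error as bars and filled symbols for an adjusted p under 0.05. None of the 9 members, above the dotted line, is filled, and Psmb10, Erap1 and Irf1 are filled and right of 0 on day 8 and in the change.

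Counts over the other lists were mixed in direction, and are to be read beside the 32.1% of all genes that rose and the 26.2% that fell in E14Tg2a by day 8, and the 19.7% that differed between lines on day 8. From the list of class I and class I-like genes 16 were in the table. H2-Ke6 (Hsd17b8), an enzyme gene of the MHC region, is neither, and it was not called in E14Tg2a by day 8. Of the other 15, 7 rose and 4 fell in E14Tg2a by day 8, with H2-T22, a nonclassical heavy chain, at 2.63 ± 0.32 and H2-M5 at -3.93 ± 0.27. On day 0 the clones were higher than E14Tg2a for 3 of the 14 tested on the whole list and lower for none, beside 5.72% of all genes. These were Fcgrt, H2-Q10 and H2-Ke6 (0.50 ± 0.10 for H2-Ke6, adjusted p = 0.0250, limma). Of 35 listed interferon-stimulated genes, 14 rose, 10 fell and 11 did not pass, with a median of 0.23, and between the clones and E14Tg2a on day 8 there were 6 higher and 2 lower, a share near that of all genes. Of 15 listed interferon signalling genes 6 rose and 4 fell, Ifngr2, a receptor chain for interferon gamma, among the risers at 2.31 ± 0.21. Between the lines on day 8 none of the 15 was higher in the clones and 6 were lower. These included Ifnar2, a receptor chain for type I interferons, at -0.72 ± 0.20 (adjusted p = 0.0108, limma) and Irf9, a subunit of the factor that acts downstream of it, at -0.70 ± 0.18 (adjusted p = 0.00654). Without replicate 2 of E14Tg2a on day 8 both calls were lost (adjusted p = 0.164 and 0.118). None of the 7 interferon and cytokine ligands looked for was in the table. Of the 14 proteasome core genes outside the inducible set, the 3 constitutive catalytic ones gave 1 rise and no fall and the other 11 gave 1 rise and 2 falls.

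The inducible subunits' shares of their catalytic pairs moved in different directions. Psmb8 made up 0.707% ± 0.943 (SD, n = 3) of the Psmb8 and Psmb5 sum in E14Tg2a on day 0, with 1.80% in replicate 1 and 0.158% and 0.167% in the others. It was 10.1% ± 1.69 (n = 2) on day 6 and 6.08% ± 4.71 (n = 3) on day 8. On day 8 the share was 15.7% ± 10.1 (n = 3) in dK9.1 and 23.8% ± 8.21 (n = 3) in dK9.2. Psmb9 was at most 1.54% of its pair in any library, and Psmb10 was 16.1% ± 0.535 (n = 3) of its pair on day 0 and 7.97% ± 2.19 (n = 3) on day 8 in E14Tg2a. In dK9.1 the Psmb10 share was 12.8% ± 2.38 and 12.9% ± 4.49 on those days, and in dK9.2 12.5% ± 1.01 and 17.2% ± 4.195 (n = 3 each).

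**Figure D4:**
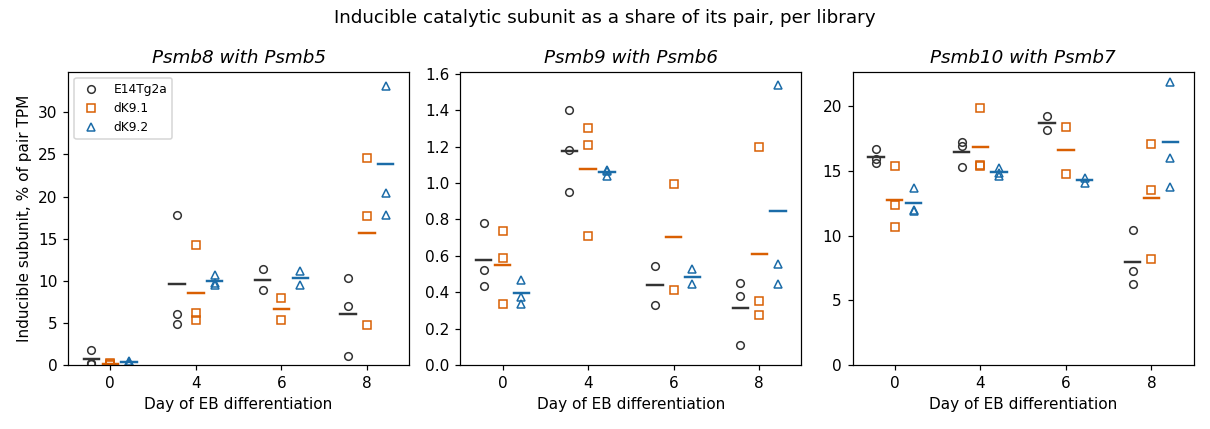
TPM of the inducible subunit as a percentage of the sum with its constitutive counterpart (vertical axis, from 0), by day, with 1 symbol per library and a short line at the mean of each line. The Psmb8 share is under 2% in all day 0 libraries and reaches 33.2% in dK9.2 on day 8.

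Psmb5 differed between the lines by itself, which enters these shares. It was lower in the clones, with differences of -0.75 ± 0.15 on day 0 (adjusted p = 0.0247, limma) and -0.77 ± 0.15 on day 8 (adjusted p = 0.000713). Psme1 and Psme2 were lower on day 0 as well, with differences of -0.76 ± 0.10 and -1.25 ± 0.14 (adjusted p = 0.00682 and 0.00547). On day 8 they were at -0.51 ± 0.13 (adjusted p = 0.00772) and -0.42 ± 0.21 (adjusted p = 0.171), and Psme1 lost its call without replicate 2 of E14Tg2a on day 8 (adjusted p = 0.0650). Psmb5 (chr14:54614119-54618022), Psme1 (chr14:55578123-55581529) and Psme2 (chr14:55587441-55591113) lie together on chromosome 14. Of 199 genes between 50 and 80 Mb there that reached 5 TPM in a group, 190 were below 0 in the clones on day 0, with a median of -0.58 beside 0.06 for all genes. None of the 9 members is on this chromosome.

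Marker genes of other cells changed with day and line. Of 18 immune markers 8 were listed, and Ptprc, Csf1r, Tyrobp and Itgam, markers of leukocytes or of subsets of them, were not. The paper used genes of at least 1 TPM in some sample mean, so a gene not listed may be low rather than absent. Of the 8 listed, 1 rose, 3 fell and 4 were not called in E14Tg2a by day 8. The summed level of the 8 was 39.5 to 56.1 TPM in E14Tg2a on day 0 and 24.7 to 26.8 on day 8. On that list the mean of Laptm5 fell from 22.98 to 2.60 TPM, while H2-Ab1, a class II chain on the same list, rose with the members from 3.28 to 12.2 TPM (1.70 ± 0.24, adjusted p = 1.13e-06, limma). Most markers of differentiated cells also rose with the members in E14Tg2a by day 8. Of 9 mesenchymal markers 8 rose and 1 fell (median sum from 9.46 to 445 TPM), of 9 endothelial ones 7 rose and 1 fell (55.0 to 134 TPM), and of 12 visceral endoderm ones 9 rose and none fell (19.3 to 564 TPM). Of 5 listed trophoblast markers 4 rose, with most of the sum in Hand1 (a mean of 0.428 to 582 TPM), and Tfap2c fell from 25.3 to 6.80 TPM. The 6 erythroid markers had a median sum of 1.67 TPM on day 4 and 992 on day 8. The 8 markers of undifferentiated cells fell from 8370 to 9252 TPM on day 0 to 390 to 492 on day 8, and in the clones to 719 to 1627. The 12 visceral endoderm markers summed to 472 to 598 TPM in E14Tg2a on day 8 and to 29.6 to 140 in the clones. The 6 erythroid markers summed to 4276 TPM in replicate 2 of E14Tg2a on day 8 against 992 and 967 in its other libraries, and to 1626 in replicate 2 of dK9.1 against 23.9 and 31.2. The 9 mesenchymal markers summed to 1792 TPM in that E14Tg2a library against 445 and 433. Replicate 2 of dK9.2 had the highest erythroid sum of its group too, 196 TPM against 1.94 and 61.8. In each line replicate 2 had the lowest Psmb8 of day 8, and the part of cell composition in the results was not tested.

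H2-K1, B2m, Tap1, Tap2, Tapbp and Psmb8 ran together, at r of at least 0.676, over the 12 group means of log2(TPM + 1), which share the day course. H2-D1 had r from 0.645 (Tap1) to 0.83 (H2-K1) to these genes, with 0.675 to Psmb8. The highest Pearson r was 0.96, for Tap2 with Tapbp, and r was 0.93 for H2-K1 with B2m. Psmb9 had r from -0.33 (Nlrc5) to 0.47 (Psmb8) to the other members. Nlrc5 had r from -0.84 to -0.33 to the others, but it passed the test on no day, and its highest day 0 values were single libraries (2.66 TPM in dK9.1 and 2.54 in dK9.2, beside at most 0.637 in the rest of those groups), so no course is read from its r. Psmb9 and its annotated neighbour Tap1 had r = 0.33 to each other. Of 12080 genes with at least 5 TPM in a group, the nearest to Psmb8 was Parp10 (r = 0.99), followed by Rgs16 and Cnn1. The nearest to Tap2 were Bcl7c, Irgm1 and Eif4e3 (r = 0.98 for the first). For H2-K1 they were Pex14, Gps2 and Sdc2, for B2m Chmp2b, 2610002M06Rik and Vezt, for Tap1 Ccn2, Rassf1 and Podxl, and for Tapbp Emd, Rbm24 and Relt. For H2-D1 they were Gm28036, H2-Q7 and Ccdc47 (r = 0.94 to 0.89), for Psmb9 Rpl34-ps1, Bst2 and Gm5148 (r = 0.90 to 0.85), and for Nlrc5, with the limit given above, Dennd3, Fntb and Lonp1. These likenesses are descriptions over 12 points.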

How the data were processed

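Strand-specific poly-A libraries were sequenced with paired ends. The authors used STAR for alignment to mm10 and RSEM, with strand, for quantification, left out libraries far from the rest in a principal component analysis, and deposited TPM per gene, the unit used here, along with their own DESeq2 fold changes and FDR, which were not used. Read depth is not kept in TPM. Linear models were fitted with limma 3.58.1 (R 4.3.3) on log2(TPM + 1), over 33 libraries and 16336 genes, or for day 0 between lines over its 9 libraries and 14504 genes that averaged 1 TPM or more in a group. p-values were adjusted by Benjamini-Hochberg over all genes. The fit was tested on simulated data with independent errors and 1 spread per gene. Those data carry no pairing of assays, so they do not test the fit on that point. Named genes were the 9 members, for other lists up to 3 genes with the largest change past the threshold in the main comparisons, the proteasome counterparts and, for each member, the 3 genes most alike over the group means. Members, lists and the chromosome 14 segment were chosen with earlier results of these data known. Assay numbers pair the lines, which were differentiated in parallel. Of 33 same-number pairs 31 had a correlation of deviations over 0.1 (median 0.22), against -0.13 for different numbers, and all 33 libraries correlated best with their own number. Alternatives were another pseudocount (0.1), another filter (5 TPM, or none on day 0), median-ratio scaling, the block, other libraries in the fit and leaving out each library. Figures were drawn with matplotlib 3.10.9.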

Additional observations from a re-analysis of the deposited data

Results flagged for a closer look

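For 6 genes named from the lists around the 9 members, the day 8 change against day 0 was not the same in the clones as in E14Tg2a, by limma's test of that difference. It was greater in the clones for Erap1 (1.62, adjusted p = 0.0152), Irf1 (1.51, adjusted p = 0.0229) and Psmb10 (1.48, adjusted p = 0.00718). It was smaller for H2-Q10 (-0.86, adjusted p = 0.0396), Mr1 (-0.86, adjusted p = 0.0292) and Pdia3 (-0.59, adjusted p = 0.0488). H2-Q10 and Mr1 are low, with group means under 4 TPM on days 0 and 8, and Mr1 had -0.57 (adjusted p = 0.160) and Pdia3 -0.46 (adjusted p = 0.2199) without replicate 2 of E14Tg2a on day 8. The call of H2-Q10 was also lost with a pseudocount of 0.1 (-1.23, adjusted p = 0.0725). Among the 9 members no such difference passed the threshold without the replicate block, and with it that of Psmb8 did (1.97, adjusted p = 0.0460).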

How the results depend on the processing

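The 9 counts of members that changed from day 0 stayed within 1.5 times of those reported under each change of pseudocount, minimum, scaling, block or groups in the fit. Without 1 library the counts for days 4, 6 and 8 ran from 4 to 6, 4 to 7 and 6 to 7 in E14Tg2a, from 1 to 2, 2 to 3 and 5 to 5 in dK9.1, and from 2 to 5, 3 to 5 and 6 to 8 in dK9.2. The day 4 calls of Tap1 and Tap2 in dK9.1 had adjusted p of 0.0285 and 0.0411 from limma, and each was lost when any of 5 of the 6 libraries was left out. The day 6 call of H2-D1 in E14Tg2a was lost in a fit on the compared groups alone too (adjusted p = 0.0537). Between the clones and E14Tg2a on day 8 the count of 0 members became 1 with a minimum of 5 TPM (Psmb8) and 2 with the replicate block (Psmb8 and Tap2), and ran from 0 to 2 without 1 library. For the change from day 0 to day 8 it became 1 with the replicate block (Psmb8) and ran from 0 to 2 without 1 library. On day 0 it ran from 0 to 1, with H2-K1 at 0.62 (adjusted p = 0.0214) without replicate 1 of E14Tg2a. The other counts between lines, on days 4 and 6, stayed at 0. Besides the calls given in the report, the paired fit added Tapbp on day 6 in dK9.1 (adjusted p = 0.0245) and Psmb9 on day 4 in dK9.2 (adjusted p = 0.0377), and it changed no other call of a member. None of the called values reversed under the alternatives run. In dK9.2, B2m, Tap1 and Tapbp on day 4 lost their calls without replicate 3 of day 4 (adjusted p = 0.126, 0.0537 and 0.0617), B2m and Tap1 also without replicate 3 of day 0 (0.0513 and 0.0515), B2m and H2-K1 on day 6 without replicate 3 of day 6 (0.151 and 0.122), H2-K1 also without replicate 1 of day 0 (0.0537), and Psmb9 on day 8 without any 1 day 0 library (0.0645 to 0.113). Psmb8 of dK9.2 against E14Tg2a on day 8 was also lost without dK9.2 replicate 1 or 3 (0.0762 and 0.103) and Tap2 without replicate 3 (0.0992). In dK9.1, Tap1 on day 6 was lost without replicate 2 of day 6 (0.0814). Fitted on the libraries of the groups compared alone, the day 8 calls of Irf1 (adjusted p = 0.0776), Psmb10 (0.132), Erap1 (0.149), Calr (0.154), Ifnar2 (0.1403) and Irf9 (0.114) between lines were lost, a fit with fewer samples. The cause of these and the other losses was not tested.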
